A study of Mus musculus with 12 samples.

Results

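The 10 genes described here mark the lymphocytes that sit between intestinal epithelial cells (intraepithelial lymphocytes) and plasma cells: Ptprc, Cd3e, Cd3g, Cd8a, Trdc, Gzma, Gzmb, Itgae, Cd7 and Jchain. They were chosen by name, and all 10 were found among the 48526 genes of the deposited count tables after removal of the Ensembl version. RNA was measured in 12 libraries from 4 female mice aged 3 months. In 2 mice the acetyltransferase genes Kat2a and Kat2b were both knocked out (DKO) by tamoxifen, injected into the abdomen at 100 mg/kg daily for 4 days in ethanol and corn oil. The 2 control mice received ethanol and corn oil without tamoxifen, so genotype and tamoxifen cannot be told apart. The driver of the deletion, and whether lymphocytes carry it, are not given in the sources used here. Epithelium was taken from the upper small intestine 2 days after the last injection and released with EDTA over 50 min. The sample titles instead read whole intestine epithelial cells, so the labels do not settle the region. Each mouse gave an input library and pulldowns with J2 and K1, antibodies that bind double-stranded RNA. Each of the 6 groups (genotype by library kind) therefore held 2 libraries from separate animals.

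Intraepithelial lymphocytes are mostly T cells that carry CD8 and either the alpha-beta or the gamma-delta T cell receptor, and many hold granules with granzymes. The integrin CD103 binds them to E-cadherin on epithelial cells, which also supply the survival cytokine interleukin 15. Plasma cells lie mainly beneath the epithelium and secrete IgA held together by the J chain, which the epithelial receptor encoded by Pigr carries into the lumen.

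Input libraries held 10307281 to 11474107 reads in genes, control pulldowns 13308021 to 16139531 and DKO pulldowns 2220291 to 5826361. The pulldowns of DKO replicate 2 were the shallowest, with 2691285 reads in J2 and 2220291 in K1, and 45.9% and 61.3% of their listed reads lay outside the counted genes. Log2 CPM values (counts scaled to library size) of replicates correlated at 0.867 across genes in DKO J2, at 0.928 in DKO K1 and at 0.988 or more in the other groups. In input, Kat2a was at 17.7 and 16.4 CPM in control and at 7.0 and 10.9 in DKO, and Kat2b at 28.6 and 24.7 in control and at 9.84 and 8.38 in DKO. Both were lower in every DKO library than in every control library of the same kind. A gene with at most 3 counts in every library of a group was taken as at its floor.

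The promoters of 3 genes are shown. Cd3g had the largest fall in DKO input among the 10 genes. Gzma had the lowest recovery of the 10 in control pulldowns, and Gzmb is the other granzyme among them. Each is the run of 250 bases before the RefSeq start of the gene on the minus strand (GRCm38.p6), 5′ to 3′. The windows lie at chr9:44980432-44980681 for Cd3g, chr13:113100982-113101231 for Gzma and chr14:56262335-56262584 for Gzmb. For Gzmb the RefSeq start lies 74 bases upstream of the start in the gene coordinates given below. Capitals mark matches on either strand to 3 short motifs of factors known in lymphocytes, none of which overlap here. For RUNX factors the letters searched were TGTGGT. For ETS factors, which are active in most blood cells, the letters were AGGAAG. For the GATA family, which includes the T cell factor GATA3, they were AGATAA.
Cd3g: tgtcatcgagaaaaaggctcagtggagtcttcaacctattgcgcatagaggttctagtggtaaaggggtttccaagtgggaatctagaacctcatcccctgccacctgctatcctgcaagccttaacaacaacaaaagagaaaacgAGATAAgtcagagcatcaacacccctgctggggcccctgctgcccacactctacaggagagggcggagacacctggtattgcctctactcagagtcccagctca
Gzma: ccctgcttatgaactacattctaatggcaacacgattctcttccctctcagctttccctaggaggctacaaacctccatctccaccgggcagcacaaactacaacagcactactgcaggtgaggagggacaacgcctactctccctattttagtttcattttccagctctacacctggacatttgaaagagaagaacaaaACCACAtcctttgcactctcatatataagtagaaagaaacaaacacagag
Gzmb: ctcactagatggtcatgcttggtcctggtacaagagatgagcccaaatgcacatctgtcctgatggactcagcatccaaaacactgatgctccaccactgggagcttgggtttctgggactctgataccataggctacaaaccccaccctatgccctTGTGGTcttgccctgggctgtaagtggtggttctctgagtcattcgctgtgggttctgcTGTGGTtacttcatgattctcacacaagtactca
The Cd3g window held 1 GATA match, the Gzma window 1 RUNX match, and the Gzmb window 2 RUNX matches. Over all 32851 promoter windows of that length, 9.99% held the GATA letters, 14.0% the RUNX letters and 29.5% the ETS letters.

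In input RNA, which is not selected by an antibody, several T cell genes were lower in DKO epithelium. By edgeR's quasi-likelihood test, with p-values adjusted over all 15088 genes tested and a threshold of 0.05, 5 of the 10 genes fell and none rose. They were Cd3e, Cd3g, Cd8a, Gzma and Itgae. Over all genes tested 17.1% fell and 18.8% rose. The median log2 fold change of the 10 genes was -0.61, against 0.00 over all genes tested. In bulk RNA, fewer cells of a type and less RNA per cell cannot be told apart.

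The CD3 chains carry the signal of every T cell receptor into the cell. Cd3e (chr9:44998740-45009627 in GRCm38) had 147 and 178 counts in control input and 70 and 86 in DKO input. The level was 12.3 ± 0.80 CPM in control and 6.08 ± 0.343 in DKO (SD, n = 2), so the groups did not overlap. It fell by 0.97 on the log2 scale, with an SE of 0.19 and an edgeR adjusted p of 0.00682. Cd3g (chr9:44969572-44980431), its neighbour on the chromosome, had 67 and 100 counts in control and 30 and 42 in DKO. Both DKO libraries were below both controls, and Cd3g fell by 1.12 on the log2 scale (SE 0.27, edgeR adjusted p = 0.0161).

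Cd8a (chr6:71373427-71379173) encodes the CD8 alpha chain, which intraepithelial lymphocytes carry as a homodimer or paired with the beta chain. It had 200 and 262 counts in control input and 140 and 120 in DKO input, and fell by 0.73 on the log2 scale (SE 0.20, edgeR adjusted p = 0.0246). Itgae (chr11:73090583-73147446) encodes CD103, an integrin alpha chain. It had 228 and 328 counts in control and 154 and 191 in DKO, and fell by 0.60 (SE 0.18, adjusted p = 0.0351). The groups did not overlap in CPM for either gene. Ptprc (chr1:138062861-138175708), the CD45 phosphatase of all leukocytes, had 245 and 333 counts in control and 184 and 218 in DKO. A log2 fold change of -0.43 (SE 0.16) did not pass the test, with an adjusted p of 0.0705. Cd7 (chr11:121036747-121039418), a surface protein of T and NK cells, had 105 and 133 counts in control and 61 and 85 in DKO, a log2 fold change of -0.62 (adjusted p = 0.0599). Of its exon bases, 10.8% overlap Gm11775, so that reads there cannot be told apart, which bears on each value of Cd7 given here.

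Of the granzymes, serine proteases of cytotoxic granules, only Gzma passed the test. Gzma (chr13:113093825-113100981) was the most abundant of the 10 genes per length in control input, at 32.3 CPM per kb. It had 444 and 403 counts in control and 259 and 257 in DKO, and fell by 0.63 on the log2 scale (SE 0.15, edgeR adjusted p = 0.0155). Gzmb (chr14:56258838-56262260) had 334 and 234 counts in control and 267 and 200 in DKO, so that its groups overlapped. Its log2 fold change was -0.19 (SE 0.26, adjusted p = 0.598). Whether the granzymes differed in their change was not tested.

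Trdc and Jchain lay in the other direction without passing the test. Trdc (chr14:54142851-54148868), the constant part of the T cell receptor delta chain, had 11 and 16 counts in control input and 13 and 27 in DKO. Its log2 fold change was 0.64 (SE 0.42, adjusted p = 0.264). It was the least abundant of the 10 per length, at 0.262 CPM per kb in control. Of its exon bases, 7.8% overlap Trdv5 and Gm43434, whose reads cannot be told apart from it here. Jchain (chr5:88519809-88527891) had 19 and 18 counts in control and 40 and 27 in DKO, a log2 fold change of 0.95 (SE 0.36, adjusted p = 0.0778). These counts are low, and the interval of the Jchain change runs from 0.10 to 1.81.

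**Figure D1:**
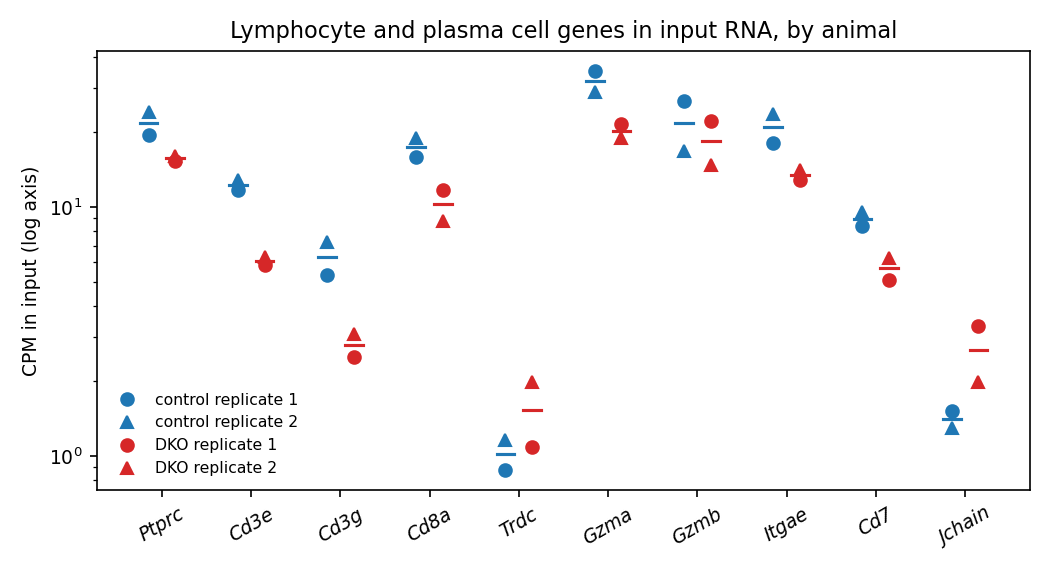
CPM of the 10 genes in the 4 input libraries on a log axis, with 1 point per animal and a line at the mean of each genotype. Both DKO animals lie below both controls for Ptprc, Cd3e, Cd3g, Cd8a, Gzma, Itgae and Cd7, and above them for Jchain, while Gzmb and Trdc overlap. Ptprc, Cd7 and Jchain did not pass the test, and the share of all genes that separate like this was not computed.

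The calls in input rested on few animals. Without control replicate 2, Cd3g (log2 fold change -0.89, edgeR adjusted p = 0.118), Cd8a (-0.61, 0.156) and Itgae (-0.40, 0.356) no longer passed, and 2 of the 10 genes remained called. Gzma was lost without control replicate 1 (-0.49, adjusted p = 0.144), and Itgae without DKO replicate 1 (-0.53, adjusted p = 0.0862) and by DESeq2 (adjusted p = 0.0734). Without DKO replicate 2, 7 of the 10 passed, with Cd7 (-0.79, edgeR adjusted p = 0.0291) lower and Jchain (1.28, adjusted p = 0.0253) higher in addition. In a fit that drew its spread from all 12 libraries none of the 10 passed, and 1675 genes in all passed against 5421. In that fit 4 of the 10 had an unadjusted p under 0.05, as did 3895 of all 16582 genes tested.

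Genes that act with these 10 were followed through lists of the T cell receptor, its signalling, cytotoxicity, residency, epithelial partners and other cell types. Each count is to be read against the 17.1% of all genes tested in input that fell and the 18.8% that rose. Of 11 tested receptor and coreceptor genes, 8 had a negative log2 fold change, 4 fell and none rose. Among them were Trgc2 (log2 fold change -1.28, SE 0.27), Trgc1 (-1.03, SE 0.24) and Trgc4 (-1.02, SE 0.29), constant parts of the gamma chain whose copies are similar enough that reads may be split between them. Trac, the constant part of the alpha chain, had 38 and 60 counts in control and 79 and 54 in DKO, a log2 fold change of 0.55 that did not pass (SE 0.32, adjusted p = 0.225). Of 10 cytotoxicity and NK receptor genes 4 fell, among them Cd96, an adhesion receptor (-1.14), the chemokine gene Ccl5 (-1.0) and Ctsw, a cathepsin of cytotoxic cells (-1.0). Of 10 signalling genes 2 fell and 1 rose, shares near or below those of all genes. Zap70, the kinase recruited to the CD3 chains, had 59 and 79 counts in control and 23 and 24 in DKO (log2 fold change -1.46, SE 0.27, edgeR adjusted p = 0.00531). Fyn, a kinase upstream of it, fell by 0.86, and Ptpn22, a phosphatase that restrains the receptor, rose by 0.64. Trgc4 did not pass when any 1 animal was left out (log2 fold changes from -1.13 to -0.92) or by DESeq2 (adjusted p = 0.157). Without control replicate 2, Cd96 (-0.86), Ctsw (-0.88), Fyn (-0.69) and Ptpn22 (0.60) did not pass, and without control replicate 1 Trgc1 (-0.95) and Ptpn22 (0.67) did not. Cd96 was also lost without DKO replicate 2 (-0.95) and Fyn without DKO replicate 1 (-0.88), and by DESeq2 neither passed. The median log2 fold changes of these lists were -0.76 for the receptor, -0.76 for cytotoxicity and -0.74 for signalling.

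Of 12 residency and homing genes 1 fell and 2 rose, which is no more than the shares of all genes. Runx3, a transcription factor of CD8 T cells, fell by 1.15. Cd38, an ectoenzyme, rose by 1.0 and Ahr, the aryl hydrocarbon receptor, by 0.63, which was lost without control replicate 2 (0.56, edgeR adjusted p = 0.0604). Of 14 epithelial partner genes 5 fell and 2 rose. Il15 had 385 and 472 counts in control and 162 and 202 in DKO (log2 fold change -1.15, SE 0.14, adjusted p = 0.000975). Il7, another lymphocyte survival cytokine, was higher in DKO by 2.49 (SE 0.30), and Pigr was lower (-1.62, SE 0.18).

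Markers of other cells were measured beside the T cell genes. Of 15 common leukocyte genes 3 fell and none rose, a share near the 17.1% of all genes that fell, and among them were Cytip (-1.38) and Laptm5 (-0.93). The summed level of that list was 85.9 to 93.5 CPM in control input and 65.3 to 72.5 in DKO input. Of 10 myeloid and mast cell genes 5 rose, Csf1r by 2.74 and Cd14 by 1.31, and 2 fell, Tyrobp by 1.04. Their sum was 23.3 to 24.5 CPM in control and 35.4 to 38.2 in DKO. The macrophage complement genes C1qa, C1qb and C1qc had at most 4 counts in any input library. Of 5 stromal genes 2 rose, Lyve1 by 2.69 and Pdgfrb by 1.99, with sums of 6.92 to 10.2 CPM in control and 19.6 to 35.9 in DKO. Lyve1 alone gave 23.1 and 13.2 CPM of the DKO sums, against 3.10 and 2.67 in control, so most of the DKO level was this gene. Of 15 epithelial genes 3 rose and none fell, near the 18.8% of all genes that rose, and their sum was 14540 to 15660 CPM in control and 15530 to 19440 in DKO. Some of these calls rested on 1 animal. Tyrobp did not pass when any 1 animal was left out (-1.15 to -0.93) or by DESeq2. Laptm5 was lost without control replicate 2 (-0.77) or DKO replicate 2 (-0.67), and Cd14 (0.87) and Pdgfrb (1.06) without DKO replicate 1. The part of these other cells in the fall of the T cell genes was not tested.

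**Figure D2:**
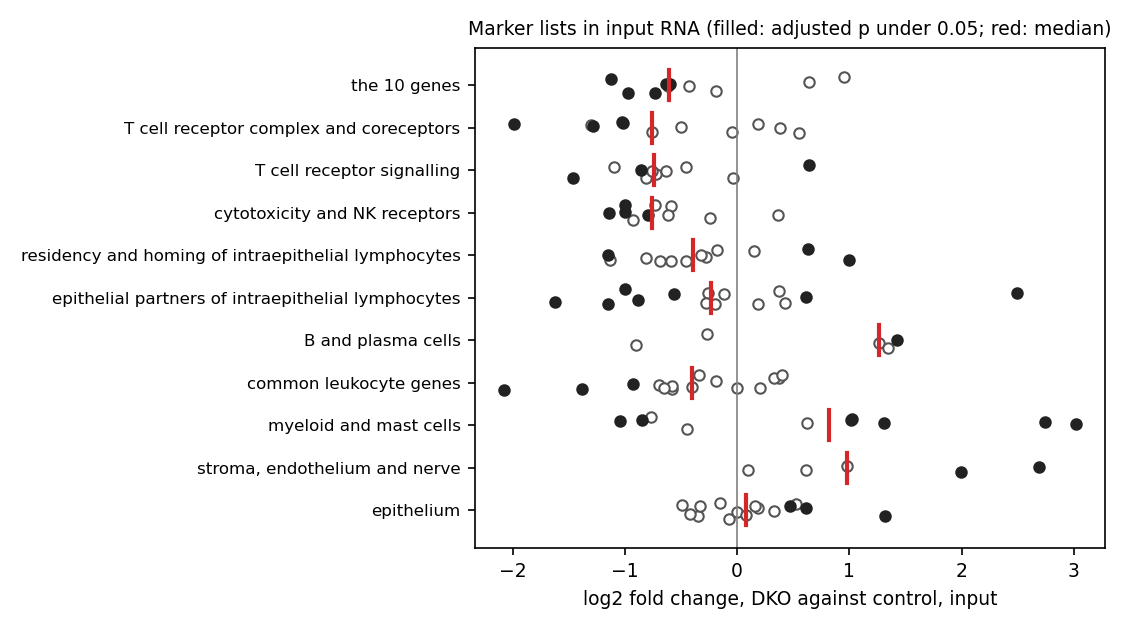
Log2 fold change of DKO against control in input for the 10 genes and each list, with 1 point per tested gene, filled where the edgeR adjusted p was under 0.05, and a red line at the list's median. The T cell and cytotoxicity lists have medians from -0.76 to -0.74, and those of myeloid cells (0.82), stroma (0.98) and B and plasma cells (1.26) lie above 0.

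Plasma cell RNA was scarce and uneven. Of 17 B and plasma cell genes only 5 were tested in input, and 1 passed, Prdm1, a transcription factor of plasma cells that epithelial cells also express, which rose by 1.42. Mzb1 and Tnfrsf17, genes of plasma cells, had at most 1 count in any of the 12 libraries. Igha, the IgA heavy chain, had 77 and 148 counts in control input and 335 and 159 in DKO input, with the highest value in DKO replicate 1. The J2 libraries had 176 and 176 counts (control) and 1009 and 42 (DKO), and the K1 libraries 370 and 407 (control) and 1428 and 73 (DKO). All 3 libraries of DKO replicate 1 were thus the highest of their kind. Scaled to library size, Igha in DKO replicate 2 was at 12.9 CPM in J2, between the controls (12.1 and 14.2), and at 33.1 in K1, above them (22.8 and 30.3). DKO replicate 1 was at 257 and 339 CPM. Igha was called higher in DKO than in control in K1 (log2 fold change 2.94, SE 0.84, edgeR adjusted p = 0.0395), but not by DESeq2 (adjusted p = 0.0807) or without DKO replicate 1 (0.57, adjusted p = 0.136). It was also higher in DKO K1 than in DKO input (3.16, SE 0.80, adjusted p = 0.0127). In that comparison the antibody light chain gene Igkc (-1.94, SE 0.60, edgeR adjusted p = 0.0297) and Prdm1 (-1.38, SE 0.32, adjusted p = 0.00869) were lower. Jchain followed the same animals in the pulldowns, with 23 and 2 counts in DKO J2 and 21 and 4 in DKO K1. The summed level of stromal genes was also highest in the J2 and K1 libraries of DKO replicate 1, at 202 and 228 CPM. Its part in the level of Igha or Jchain was not tested.

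**Figure D3:**
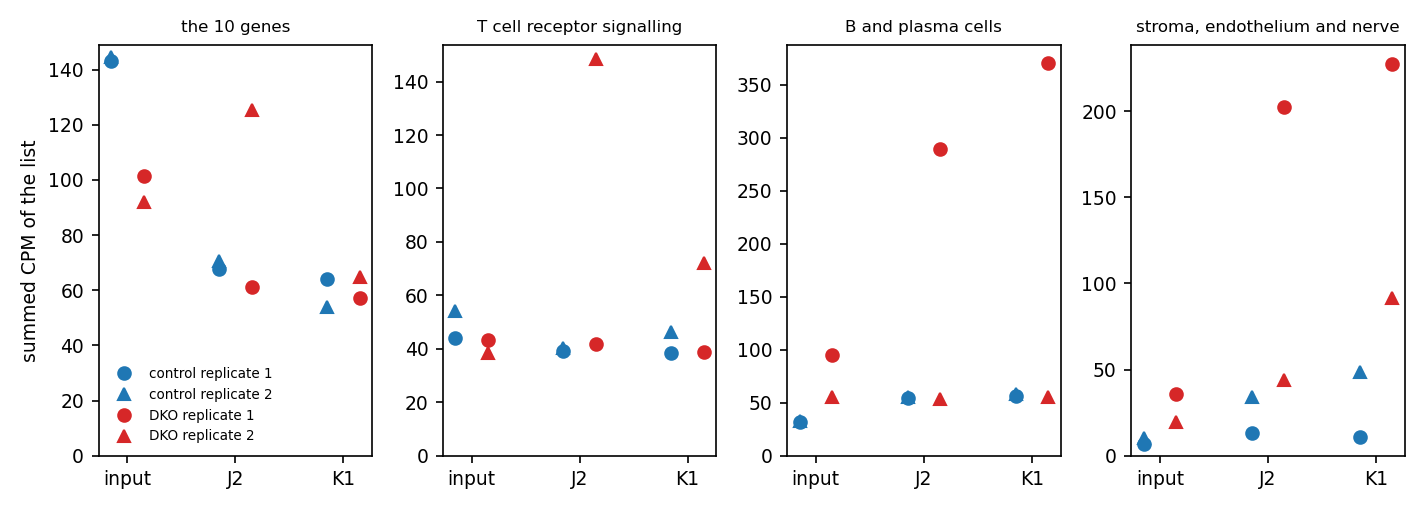
Summed CPM in each library for the 10 genes, T cell receptor signalling, B and plasma cells, and stroma, endothelium and nerve, with 1 point per library and symbols by animal. DKO replicate 2 stands above the other J2 libraries for the 10 genes (125.5 against 61.2 to 70.7) and for signalling (148.3), and DKO replicate 1 stands above for B and plasma cells (289.1) and stroma (202.4).

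The pulldowns ask which transcripts are recovered with antibodies to double-stranded RNA relative to input. In control epithelium several T cell and granzyme transcripts were recovered poorly. In J2, 5 of the 10 genes were lower than in input and none higher, against 14.6% of all 15923 genes tested that were lower. In K1, 7 of the 10 were lower and none higher, against 20.1% of 15908. The median log2 fold change of the 10 was -1.20 with each antibody, against -0.07 over all genes in J2 and 0.00 in K1. Both antibodies were compared with the same input libraries, so their results are not independent. Without control replicate 1 or 2, 0 of the 10 passed in J2, where 0 of all genes did, and 2 and 1 passed in K1, where 338 and 281 of all genes did. Without TMM scaling 3 of the 10 passed in J2, as Cd3e (adjusted p = 0.0815) and Gzmb (0.0678) did not.

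In control, Gzma was the gene of the 10 with the lowest recovery. Against 444 and 403 counts in control input the J2 libraries of control held 42 and 33 and the K1 libraries 66 and 46. Its level was 32.2 ± 4.45 CPM in input, 2.78 ± 0.149 in J2 and 3.75 ± 0.455 in K1 (SD, n = 2). Against input the log2 fold change was -3.52 in J2 (SE 0.27, edgeR adjusted p = 0.00165) and -3.17 in K1 (SE 0.25, adjusted p = 9.28e-05). Gzmb, with 103 and 52 counts in J2 and 124 and 39 in K1, had log2 fold changes of -1.93 and -2.09, both past the threshold. DKO gave Gzma 14 and 11 counts in J2 and 25 and 9 in K1, with log2 fold changes of -2.51 (SE 0.28, adjusted p = 0.00239) and -2.04 (SE 0.29, adjusted p = 0.000841). No Gzma pulldown value overlapped the input values of its genotype.

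Among the surface genes, Cd7 and Cd3g were lower with both antibodies in control. For Cd7 the control counts were 18 and 20 (J2) and 46 and 29 (K1), with log2 fold changes of -2.64 (SE 0.56) and -1.91 (SE 0.31). Cd3g had 11 and 19 counts in J2 and 41 and 33 in K1, with log2 fold changes of -2.45 (SE 0.42) and -1.41 (SE 0.31). Cd3e was also lower, at -1.61 in J2 (adjusted p = 0.0409) and -0.85 in K1 (adjusted p = 0.0177). Ptprc (-0.86) and Itgae (-1.13) passed in K1, while in J2 their log2 fold changes were -0.78 (adjusted p = 0.0971) and -0.27 (adjusted p = 0.422).

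Cd8a, Jchain and Trdc did not pass in control with either antibody. Cd8a had 293 and 268 counts in J2 against 200 and 262 in input, and 213 and 172 in K1. Its log2 fold changes were 0.27 (SE 0.45) and -0.50 (SE 0.28). Those of Jchain were 0.38 (SE 0.75) and 0.18 (SE 0.46), and those of Trdc were 0.59 (SE 0.61) in J2 and -1.27 (SE 0.52) in K1.

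**Figure D4:**
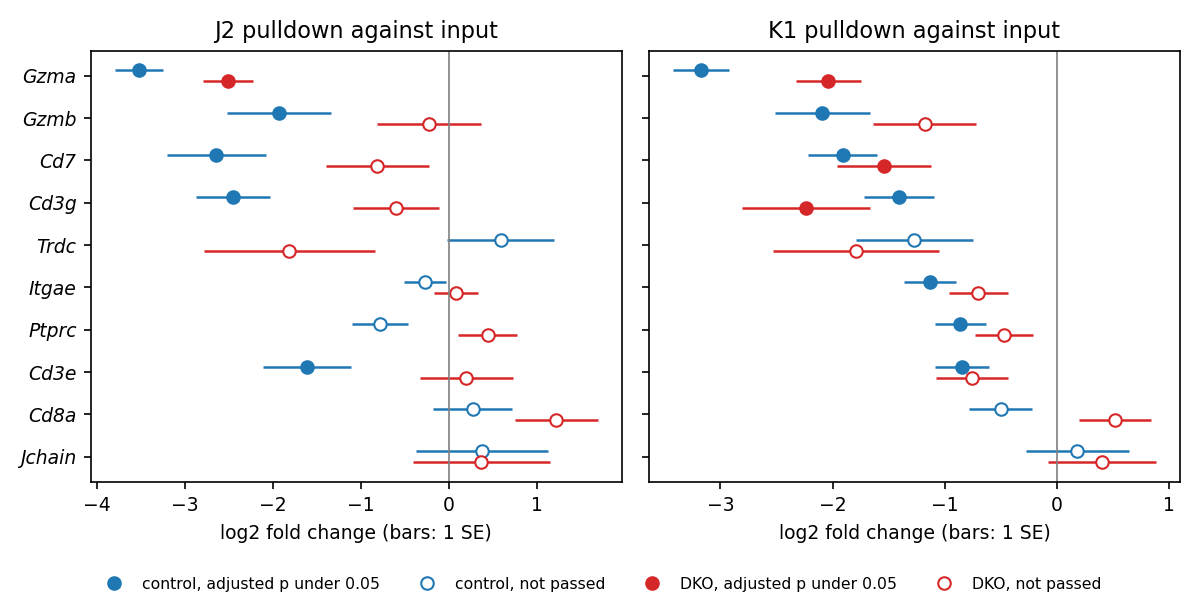
Log2 fold change of pulldown against input for the 10 genes with each antibody, with bars of 1 SE, blue for control and red for DKO, and filled points where the edgeR adjusted p was under 0.05. Gzma is lowest in control with both antibodies (-3.52 and -3.17), and in J2 the DKO points lie to the right of the control points for 8 of the 10 genes.

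Other cytotoxic genes were also low in control pulldowns. In K1, 8 of 11 tested cytotoxicity genes were lower than in input and none higher. Ccl5 was at -2.94 on the log2 scale, Klrd1, an NK receptor chain, at -2.53 and Ctsw at -2.37. In J2, 4 of 11 were lower, with Ccl5 at -3.75, Ctsw at -2.08 and the granule gene Nkg7 at -1.15. Of 12 tested receptor genes 4 were lower in K1 and 3 in J2, among them Trgc1 at -2.49 and -2.02. These list counts are to be read against the 20.1% of all genes tested that were lower in K1 and the 14.6% in J2. Runx3 and Ahr were higher in control J2 than in input, at 0.94 and 0.74. With the animal as a block Nkg7 (edgeR adjusted p = 0.0503), Runx3 (0.0638) and Ahr (0.0585) did not pass in J2, and Trgc1 in J2, Runx3 and Ahr did not pass without TMM scaling. Without either control animal Ccl5, Klrd1 and Ctsw were at adjusted p-values of 0.0555 to 0.0931 in K1, and Trgc1 was lost without control replicate 2 (-1.84).

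Transcript length moved with recovery in control. Over 12880 protein-coding genes, the Spearman correlation of the J2 log2 fold change in control with the length of the longest transcript was 0.54, and it was 0.39 over 12854 genes in K1. Over the 10 genes it was 0.71 and 0.47. In DKO it was weaker over the protein-coding genes, at 0.21 in J2 and 0.15 in K1, where the correlation with GC content was 0.31 and 0.37, against -0.05 and 0.16 in control. Genes under 1000 bases had a median log2 fold change of -1.41 in J2 and -0.86 in K1, and genes of 4000 bases or more had 0.68 and 0.49. Gzma (996 bases) and Cd7 (982 bases) are in the shortest class. In J2, 3.46% of that class were lower than Gzma and 12.5% lower than Cd7, and in K1 4.45% and 16.4%. Ptprc, at 5074 bases in the longest class, was also low for its length, with 5.45% of its class lower in J2 and 6.05% in K1. Jchain (1393 bases) stood high, with 90.1% of its class lower in J2 and 76.4% in K1. The points are genes that share the same libraries, and the part of length in the recovery of the 10 genes was not tested.

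**Figure D5:**
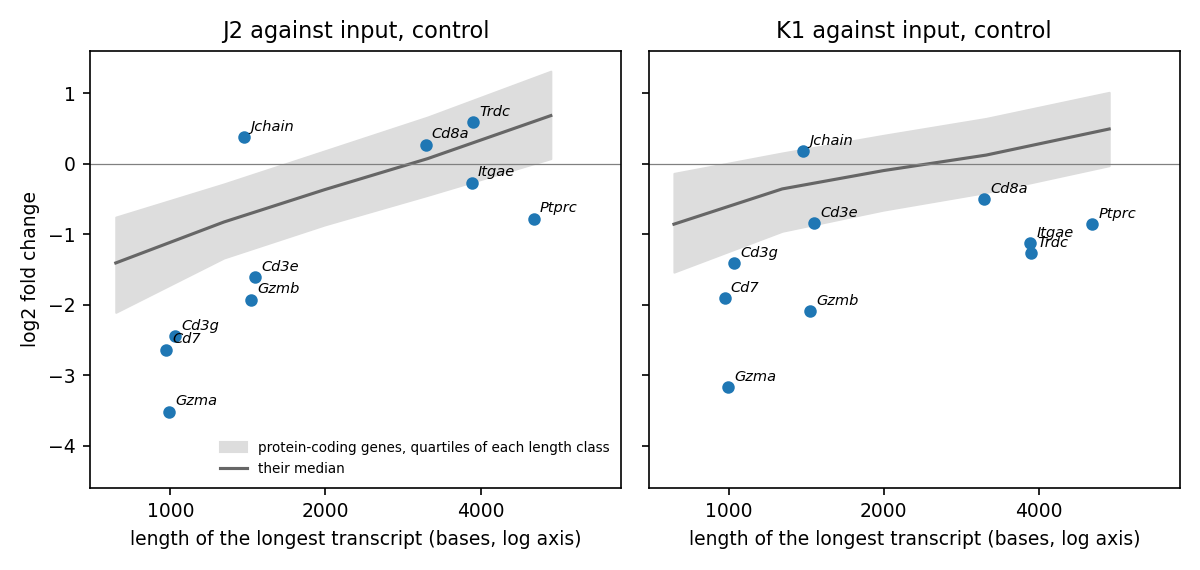
Log2 fold change of control pulldown against input for the 10 genes (points) by length of the longest transcript on a log axis, over the median (line) and quartiles (band) of protein-coding genes in 5 length classes. The median rises from -1.41 to 0.68 in J2 and from -0.86 to 0.49 in K1, and Gzma, Cd3g, Cd7, Gzmb and Ptprc lie below the band with both antibodies.

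In DKO fewer of the 10 genes passed. In J2 only Gzma was lower than in input, against 13.4% of all genes tested. Without DKO replicate 1, Ptprc was at 0.68 and Cd8a at 1.91, and without DKO replicate 2, Gzmb was at -1.83 and Cd7 at -2.28. In these fits with a lone DKO animal, more of all genes passed than with all animals. Their calls therefore say little about the 10 genes. In K1, Gzma, Cd7 and Cd3g were lower, against 21.0% of all genes. Cd7 had 7 and 6 counts in DKO K1 (log2 fold change -1.54, SE 0.42, edgeR adjusted p = 0.0173). Cd3g had 3 and 1 counts in DKO K1 against 30 and 42 in DKO input. From the pooled counts its K1 to input ratio was 0.222, with an exact 95% interval of 0.0588 to 0.592 that covers counting error only. Trdc had 0 and 3 counts in DKO J2 and 2 and 1 in DKO K1, at or under the floor. With the animal as a block, Gzmb also passed in DKO K1 (-1.2, adjusted p = 0.00554). Cd3g was lost without DKO replicate 2 (adjusted p = 0.0620), and Cd7 without DKO replicate 1 (-1.35, adjusted p = 0.0790) or either control animal (0.0647 and 0.0643). Cd8a was at 1.08 without DKO replicate 1. Without TMM scaling 7 of the 10 passed, all lower.

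The 2 DKO animals differed in J2. Cd8a had 44 counts in replicate 1 and 116 in replicate 2, in a library less than 0.5 times as deep. On the log2 scale its J2 level minus its own input was -0.06 in replicate 1 and 2.00 in replicate 2. Gzmb gave -1.83 and 0.77 in the same order, Cd3e -1.01 and 0.79, and Cd7 -2.12 and -0.17. Gzma gave -2.53 and -2.41, so that the animals did not stand apart for it. The median over the 10 genes was -0.64 in replicate 1 and -0.11 in replicate 2, against -1.15 and -1.20 in the control animals. In K1 the medians were -0.86 and -0.66 in DKO and -0.77 and -1.21 in control, which overlap.

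No gene of the 10 differed in recovery between genotypes by the test of the difference itself. With edgeR, 0 of the 10 passed for J2, where 2.71% of all genes did, and 0 of the 10 for K1, where 5.47% did. DESeq2 also gave 0 for both. Unadjusted p-values were under 0.05 for 4 genes in J2 (Ptprc, Cd3e, Cd3g and Gzma) and for 2 in K1 (Cd8a and Gzma). Over all genes tested they were under 0.05 for 4120 of 15923 in J2 and for 3736 of 15908 in K1. For Gzma the difference, DKO minus control, was 1.02 in J2 (95% interval 0.14 to 1.90, edgeR adjusted p = 0.150) and 1.13 in K1 (0.27 to 1.98, adjusted p = 0.114). Without DKO replicate 1, J2 differences included 1.59 for Ptprc, 2.44 for Cd3e, 1.77 for Cd8a, 2.72 for Gzmb and 2.50 for Cd7. Cd8a was then at 1.6 in K1. The lone DKO pulldown left was assumed to vary like the other groups. Far more of all genes passed for J2 in that fit than with all animals, so its calls say little about the 10 genes. Outside the 10, Ctsw was recovered better in DKO with both antibodies, by 2.7 in J2 (SE 0.56, adjusted p = 0.0489) and by 2.47 in K1 (SE 0.56, adjusted p = 0.0369). Klrd1 passed in K1 (2.89, SE 0.67), and Prdm1 was recovered less in DKO (-1.93 in J2 and -1.83 in K1). With the animal as a block Ctsw (adjusted p = 0.0829) and Prdm1 (0.0726) did not pass in J2. Without either control animal the test of the difference could say nothing of these genes, since 0 of all genes passed in J2 and 0 and 3 in K1. In K1, Klrd1 was also lost without DKO replicate 1 (3.02, adjusted p = 0.0640) or 2 (2.73, 0.0758), and Ctsw without DKO replicate 2 (1.68, 0.0691).

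Set directly against each other, the pulldowns of the genotypes gave no call among the 10 genes. In J2, 0 of the 10 differed between DKO and control by edgeR, where 12.2% of all 13181 genes tested did, and 0 by DESeq2. At an unadjusted p under 0.05 there were 0 of the 10, against 4670 of all genes tested. In K1, 0 of 9 tested genes differed, where 27.1% of 12888 did, and 0 by DESeq2. Of the 9 only Cd3g had an unadjusted p under 0.05, against 5326 of all genes tested. Trdc was not tested in K1 for low counts. The J2 values depended on the animal. Without DKO replicate 1, log2 fold changes included 1.22 for Ptprc, 1.55 for Cd3e, 0.86 for Cd8a, 2.23 for Gzmb and 2.04 for Cd7. Without DKO replicate 2 they included -0.84 for Cd8a and 1.75 for Jchain, and the lone DKO library held 0 counts of Trdc. In K1, Cd8a was at 0.93 without DKO replicate 1 and Jchain at 1.72 without DKO replicate 2. In these fits with a lone DKO library, more of all genes passed than with all animals. Their calls therefore say little about the 10 genes. Cd3g in K1 had 41 and 33 counts in control and 3 and 1 in DKO, and the ratio of pooled levels was 0.25 (exact 95% counting interval 0.0663 to 0.666). Its edgeR adjusted p was 0.0819, and it passed without TMM scaling (0.0456) and in the fit of all 12 libraries (0.0321).

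For the 9 genes with enough counts, log2 CPM was standardised per gene over the 12 libraries and then averaged. This mean profile was highest in control input, at 0.93 and 1.12 SD above the average. It stood at 0.34 and 0.22 in DKO input and between -0.58 and -0.24 in all pulldowns but J2 of DKO replicate 2, at 0.52. Among 9367 other genes, those whose levels followed it most closely over the 12 libraries were Pdss1 (Pearson r = 0.940), Rhebl1 (0.935), Ogt (0.903), Pex10 (0.892) and Pcsk4 (0.886). None of these is in a list of lymphocyte genes used here.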

How the data were processed

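RNA of 12 libraries was analysed from 1 deposited table each. The deposited values are whole-number counts of reads in genes, and per the labels strand was not used in counting. The submitters' processing notes name STAR 2.7.10b, UMI-tools 1.1.4 and HTSeq 2.0.2 and the builds mm10 and GRCm38.p4, with no order. Whether duplicates were removed by molecular identifier is not given in the sources used here. Reads outside genes were left out. Identifiers matched GENCODE M21 (GRCm38) without version for 48058 of 48526 genes, and 3 list genes matched through synonyms.

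Genes were tested by the quasi-likelihood method of edgeR 4.0.16 (R 4.3.3) after TMM scaling. Genes were kept by filterByExpr at a minimum of 10 counts, and p-values were adjusted over all genes kept (Benjamini-Hochberg, threshold 0.05). DKO was compared with control in fits of 4 libraries, and pulldown with input, and the difference between genotypes, in fits of 8 libraries per antibody. CPM values use TMM scaling over the 12 libraries, and log2 CPM a prior count of 2 scaled to depth. No spike-in is described, so levels are relative to each library's total. The fits were tested on simulated data.

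The members and lists were chosen with earlier results of these data known. All 10 genes are named, and of each other list up to 3 genes per comparison with an adjusted p under 0.05, the largest fold changes and a mean of at least 20 counts. Genes named outside this rule (Igha in all libraries, Trac in input, complement genes, Mzb1 and Tnfrsf17) were chosen after their values were seen. The 5 genes most alike in pattern have a mean of at least 50 counts.

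Input and pulldown of the same number come from the same animal per the labels. Deviations from the group means of such pairs correlated at 0.208 to 0.296. Control and DKO animals share only a number. Alternatives were DESeq2 1.42.0, its size factors in edgeR, no TMM scaling, no filter on low counts, a fit of all 12 libraries, the replicate number as a block, and leaving out each animal. The replicates are separate animals, 2 per group, and their number limits the precision.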

Additional observations from a re-analysis of the deposited data

Results flagged for a closer look

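Recovery with the antibodies is the log2 fold change of pulldown against input. By edgeR's test of the difference itself (DKO minus control, adjusted over all genes), it differed between the genotypes for 8 genes of the accompanying lists. These lists hold 160 genes, of which those with low counts were not tested. None of the 10 genes passed. Over all genes tested 2.71% passed in J2 and 5.47% in K1, and the calls below are to be read against these shares. In J2 the difference was 2.7 for Ctsw (SE 0.56, adjusted p = 0.0489), 2.74 for the leukocyte integrin gene Itgb2 (SE 0.52, adjusted p = 0.0435) and -1.93 for Prdm1 (SE 0.37, adjusted p = 0.0435). With the animal as a block these 3 did not pass (adjusted p = 0.0829, 0.0738 and 0.0726), nor did they without TMM scaling. In K1 it was 2.89 for Klrd1 (adjusted p = 0.0386), 2.47 for Ctsw (0.0369), 1.86 for Itgb2 (0.0459), 2.43 for the myeloid integrin gene Itgax (0.0198) and 3.51 for Fcer1g, a signalling chain of Fc receptors (0.0365). Il7 (-3.46, adjusted p = 0.0203), Prdm1 (-1.83, 0.0394) and the epithelial transcription factor gene Cdx1 (-1.35, 0.0435) lay in the other direction. Il7 had 225 and 204 counts in DKO input but 6 and 6 in DKO K1, so its difference rests on few pulldown counts. In the fit of all 12 libraries none of these K1 calls remained, where 59 of all genes passed against 870. Without control replicate 1 or 2, 0 of all genes passed in J2 and 0 and 3 in K1, so those fits say nothing of these genes.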

How the results depend on the processing

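The number of the 10 genes called was recomputed under 10 alternatives, and the cause of each change was not tested. When each animal was left out in turn, the count ranged from 2 to 7 for DKO against control in input (5 with all animals), 0 to 5 for DKO against control in J2 (0 with all animals), 0 to 1 for DKO against control in K1 (0 with all animals), 0 to 6 for control J2 against input (5 with all animals), 1 to 3 for DKO J2 against input (1 with all animals), 0 to 5 for the difference of J2 recovery (0 with all animals), 1 to 9 for control K1 against input (7 with all animals) and from 0 to 1 for the difference of K1 recovery (0 with all animals). A lone animal left in a group was assumed to vary like the other groups. With a lone control, few or no genes of the whole table passed for control J2 or K1 against input. With a lone DKO animal, many more passed than with all animals for control J2 against input and for DKO against control in J2. Counts from either kind of fit therefore say little about the 10 genes. Leaving out animals turned the sign of these log2 fold changes, none of them called in the full data: DKO against control in input (Gzmb from -0.51 to 0.16), DKO against control in J2 (Cd3e from -0.45 to 1.55, Cd8a from -0.84 to 0.86, Cd7 from -0.41 to 2.04, Jchain from -1.46 to 1.75), DKO against control in K1 (Ptprc from -0.13 to 0.34, Cd8a from -0.06 to 0.93, Itgae from -0.08 to 0.09, Cd7 from -0.44 to 0.36), control J2 against input (Trdc from -0.12 to 1.2, Jchain from -0.52 to 1.05), DKO J2 against input (Ptprc from -0.08 to 0.68, Cd3e from -1.03 to 0.70, Cd8a from -0.03 to 1.91, Gzmb from -1.83 to 0.67, Itgae from -0.16 to 0.18, Jchain from -1.78 to 0.84), the difference of J2 recovery (Cd8a from -0.31 to 1.77, Jchain from -2.02 to 0.72), DKO K1 against input (Cd8a from -0.15 to 1.08, Jchain from -0.28 to 0.49), the difference of K1 recovery (Ptprc from 0.00 to 0.75, Cd3e from -0.05 to 0.23, Trdc from -0.97 to 0.01, Jchain from -0.45 to 0.30). Without TMM scaling, 1 of the 10 passed for DKO against control in K1, 3 for control J2 against input, 7 for DKO K1 against input. Without TMM scaling, the sign turned where Ptprc was at -0.26 for DKO against control in K1, Cd8a was at -0.11 for control J2 against input, Itgae was at -0.26 for DKO J2 against input, Jchain was at -0.20 for DKO J2 against input, Jchain was at -0.05 for control K1 against input, Cd3e was at -0.01 for the difference of K1 recovery. Without a filter on low counts, 7 of the 10 passed for DKO against control in input, with Cd7 (-0.63, adjusted p = 0.0388) and Jchain (0.93, adjusted p = 0.0314) added, and 2 for DKO J2 against input. Without a filter on low counts, the sign turned where Ptprc was at -0.08 for DKO against control in K1, Cd3e was at -0.04 for DKO J2 against input, Itgae was at -0.16 for DKO J2 against input. In the fit of all 12 libraries, 0 of the 10 passed for DKO against control in input, 1 for DKO against control in K1. In the fit of all 12 libraries, the sign turned where Ptprc was at -0.07 for DKO against control in K1. With DESeq2, the sign turned where Itgae was at 0.04 for DKO against control in K1, Cd7 was at 0.02 for DKO against control in K1, Itgae was at 0.00 for DKO J2 against input. With DESeq2's size factors in edgeR, the sign turned where Itgae was at 0.04 for DKO against control in K1, Itgae was at 0.00 for DKO J2 against input. The fit with the animal as a block, which pairs input and pulldown, gave 5 for control J2, 1 for DKO J2, 7 for control K1, 4 for DKO K1 and 0 for both differences, and changed no other call among the 10 than that of Gzmb in DKO K1 (-1.2). Between genotypes the animals share only a number, deviations correlated at 0.03 in input, -0.09 in J2 and -0.10 in K1, and the block gave 5, 0 and 0 calls. Over all genes the block left 0 differences of J2 recovery called against 432. Of the other genes named for input, Il15, Il7, Runx3, Cytip, Lyve1 and Prdm1 passed in the fit of all 12 libraries and the rest did not. Over all genes, the share of calls that were higher moved without TMM scaling from 52.4% to 42.1% for DKO against control in input, 49.4% to 32.7% for DKO against control in J2, 48.6% to 27.4% for DKO against control in K1, 51.1% to 34.6% for control J2 against input, 47.6% to 21.1% for DKO J2 against input, 28.5% to 10.5% for the difference of J2 recovery, 49.6% to 35.9% for control K1 against input, 41.1% to 22.3% for DKO K1 against input, 25.1% to 13.2% for the difference of K1 recovery. The median log2 fold change of all genes was -0.14 for DKO K1 against input and -0.20 for the difference of K1 recovery, and changes of the 10 genes are to be read against it. Depth limits Trdc, Jchain, Cd3g and Cd7 most, with 0 to 23 counts in the DKO pulldowns.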
